A study of Homo sapiens with 3 samples.

Results

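VCP peaks inside gene bodies are the peaks of the VCP antibody whose summit lay within a protein-coding gene and more than 1 kb from both outer ends of every protein-coding gene. They numbered 457 of the 1816 peaks in the VCP list, or 457 of the 1578 on the chromosomes once chromosome 8 from 66 Mb, chromosome 10 from 95 Mb and chromosome 17 from 40 Mb were left out. The other peaks of that 1578 lay at gene ends (347) or between protein-coding genes (774), and 73 further gene-body peaks fell in the left-out segments. The members nearest the 1 kb limit were in FKBP5 (1015 bp from the nearest end), SOCS2 (1020 bp) and ANXA2R (1031 bp). The nearest peaks left out were at H3-3A (1000 bp), ZFTA (997 bp) and CCNG2 (966 bp).

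The samples were chromatin of HCT116, an established human colorectal cancer line, overexpressing VCP with a Flag tag. Precipitations used 1 antibody against VCP and 1 against Flag, and input chromatin was sequenced too. Each was 1 library, so an interval or p-value here describes the peaks of these libraries and not the spread between cultures, and intervals cover counting error only. The VCP antibody can bind tagged and untagged VCP, no library from cells without the tag was analysed here, and expression was not measured, so the cell label could not be checked against marker genes. Input reads were not used here, and coordinates are 1-based on hg38.

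VCP, also called p97, is a hexameric ATPase that unfolds ubiquitin-tagged proteins and pulls them out of membranes and complexes, mostly for degradation by the proteasome. On chromatin it is known to release stalled RNA polymerase II, the replicative helicase and trapped repair proteins. A gene body holds exons, introns and often internal promoters from which shorter transcripts start. Many of the longest human genes are mostly intron, replicate late and overlap common fragile sites, which break under replication stress.

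The promoter table of RefSeq gives the start positions of transcripts (35116 starts of 27305 genes), so starts inside a gene could be found. Of the 443 members on the chromosomes it covers, 44 lay within 1 kb of such a start, and 28 of these lay within 300 bp. The window of 250 bases before to 50 bases after the start was searched on both strands at these 28 starts. The stretches below run from 170 bases before each internal start to 12 bases from the start on. They are shown because their peaks were recovered with both antibodies and hold CCGGAAG, the motif of 6 searched whose interval left out its share over all starts. They are the 5 such members with the highest -log10 q whose start belongs to the host gene, and they were chosen after their values were seen. Sequences are from RefSeq (GRCh38.p14), 5′ to 3′ on the strand of the gene. Capitals mark CCGGAAG (bound by ETS factors), GGGCGG (SP factors), CCAAT (NF-Y) and TGACGTCA (CRE), or their reverse complements, and no marked motifs overlap. Whether any of these bases are exon of a longer transcript was not assessed.
ATG101, chr12:52069808-52069989, plus strand: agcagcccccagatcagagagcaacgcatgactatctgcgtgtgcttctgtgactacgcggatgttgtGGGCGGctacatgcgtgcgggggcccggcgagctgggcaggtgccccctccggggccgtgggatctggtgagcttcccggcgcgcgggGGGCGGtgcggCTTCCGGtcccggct
LSM5, chr7:32490369-32490550, minus strand: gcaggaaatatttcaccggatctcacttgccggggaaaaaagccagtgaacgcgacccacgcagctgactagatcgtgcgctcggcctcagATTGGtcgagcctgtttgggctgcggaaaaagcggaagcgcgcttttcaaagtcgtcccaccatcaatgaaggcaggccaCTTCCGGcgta
PSMF1, chr20:1118432-1118613, plus strand: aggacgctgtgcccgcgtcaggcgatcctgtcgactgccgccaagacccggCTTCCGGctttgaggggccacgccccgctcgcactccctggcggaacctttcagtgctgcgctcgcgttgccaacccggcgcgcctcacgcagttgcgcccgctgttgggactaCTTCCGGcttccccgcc
SLC39A1, chr1:153963526-153963707, minus strand: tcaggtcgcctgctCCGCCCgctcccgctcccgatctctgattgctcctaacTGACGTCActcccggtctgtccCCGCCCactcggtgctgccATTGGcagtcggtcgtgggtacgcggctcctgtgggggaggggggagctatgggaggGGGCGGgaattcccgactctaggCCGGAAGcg
CELF1, chr11:47553121-47553302, minus strand: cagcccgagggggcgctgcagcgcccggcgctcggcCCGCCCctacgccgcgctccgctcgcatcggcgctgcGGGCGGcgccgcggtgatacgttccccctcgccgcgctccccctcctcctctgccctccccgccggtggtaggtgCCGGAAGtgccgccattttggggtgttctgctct

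The peak in ATG101, a subunit of the complex that starts autophagy, had the highest -log10 q of the 457 members (7.87), with 19 reads at its summit (exact Poisson 95% interval 11.4 to 29.7) over a local background of 1.74 reads. It spanned chr12:52069722-52070014, and its summit was 146 bp upstream of the internal start printed above. The summit in LSM5, a subunit of an RNA-binding ring in splicing and mRNA decay, was 124 bp downstream of its start (13 reads, 6.92 to 22.2). In PSMF1, which encodes a proteasome inhibitor, the summit was 44 bp upstream (12 reads, 6.20 to 21.0). SLC39A1, a zinc transporter gene, had 13 reads at 101 bp downstream, and CELF1, an RNA-binding protein gene, had 11 reads at 152 bp upstream. All 5 peaks overlapped a Flag peak, with 11, 13, 21, 11 and 13 Flag reads at the summit in the same order.

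The motif CCGGAAG was in 8 of the 28 windows (28.6%, exact binomial interval 13.2 to 48.7), against 10.2% of 34943 windows at all starts. It was in 7 of the 10 windows whose VCP peak overlapped a Flag peak (70.0%, 34.8 to 93.3) and in 1 of the other 18 (5.56%, 0.141 to 27.3), that of the actin regulator INF2. This split was noticed in the data and was not tested. GGGCGG was in 16 windows (57.1%, all starts 44.9%), CACGTG in 5 (17.9%, all starts 7.23%), CCAAT in 8 (28.6%, all starts 34.6%), TGACGTCA in 1 (3.57%, all starts 1.84%) and GCGCATGC, the NRF1 core, in 0 (all starts 3.02%). For each of these 5 motifs the interval of the members' share held the share over all starts. No interval here, that of CCGGAAG included, allows for the number of motifs searched. The 28 windows had a median GC content of 66.5% and a median of 24 CpG sites, against 58.7% and 14 over all windows, and the part of base composition in the motif shares was not tested.

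Gene-body peaks lay at internal starts more often than the length of such sequence would give. The promoter table has no entry for chromosome 8, and its 14 members were not assessed. Some hosts on other chromosomes have no start there either, and their members could only be classed by starts of other genes. Starts took up 1.25% of the eligible bases, meaning bases where a member's summit could lie, and 9.93% of members (7.31 to 13.1), which is 7.91 times the share of bases. For 39 of the 44 members the nearest start belonged to a host gene. The other starts belonged to non-coding genes within or beside the host, such as MIR762HG in BCL7C, ANXA2R-AS1 at ANXA2R and GNG12-AS1 in GNG12. Among the Flag library's 1391 gene-body peaks, 214 of the 1361 outside chromosome 8 lay at such starts (15.7%, 13.8 to 17.8). The VCP share was lower by 5.79 percentage points (Fisher's exact test over peaks, two-sided, Benjamini-Hochberg adjusted p over 8 tests 0.0045), and by 6.42 points among peaks whose host has a start in the table (adjusted p 0.006). The difference kept its direction but did not pass among members over 5 kb from gene ends (-3.86 points, adjusted p 0.057) or with q of at most 0.05 in both lists (-1.35 points, adjusted p 1). An end of a non-coding gene was within 1 kb of 23 members (5.03%), against 7.91% of Flag gene-body peaks (adjusted p 0.054) and 2.85% of eligible bases.

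Both antibodies recovered few of the same gene-body sites, and those they shared were mostly in short genes and often at internal starts. Of the 457 members, 29 shared 1 bp or more with a Flag peak (6.35%, 4.29 to 8.99), where the share over all 1578 VCP peaks was 10.3%. At gene ends 108 of 347 overlapped (31.1%, 26.3 to 36.3), a difference of -24.8 percentage points for the bodies (Fisher's exact test over peaks, adjusted p 1.4e-19). Between genes 25 of 774 overlapped (3.23%), 3.12 points below the bodies (adjusted p 0.018). With peaks at tabulated starts left out of both the bodies and the sequence between genes, 16 of 413 and 25 of 758 overlapped, a lead of 0.576 points (adjusted p 0.72), an alternative added after the data were seen. That lead kept its call with the left-out segments kept in (adjusted p 0.0013) and lost it under every other alternative run. At internal starts 13 of 44 members overlapped a Flag peak (29.5%, 16.8 to 45.2), and away from them 16 of 399 did (4.01%, 2.31 to 6.43), a difference of 25.5 points (Fisher's exact test over peaks, adjusted p 9.0e-07). Among members whose host has a start in the table the counts were 13 of 43 and 11 of 334 (30.2% and 3.29%, adjusted p 2.5e-07). Among VCP peaks with q of at most 0.05, 26 of them members, the differences to gene ends, to sequence between genes and at starts did not pass (adjusted p 0.51, 0.96 and 0.23 in the order given). By host length, 17 of 114 overlapped in hosts under 100 kb (14.9%), 10 of 160 in hosts of 100 to 500 kb (6.25%) and 2 of 183 in hosts of 500 kb or more (1.09%, 0.133 to 3.89), the last being RELN and GSE1. Internal starts moved with length too, at 25 of 114 members in hosts under 100 kb (21.9%) and 19 of 343 in longer ones (5.54%). Of the 29 shared sites, 16 had a Flag q of at most 0.05, and the summits of the pairs were a median of 80 bp apart (0 to 330).

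Of the 10 shared sites with the highest -log10 q, 6 were not among the starts printed above. RNF135, a ubiquitin ligase of antiviral sensing, had 13 VCP reads and 12 Flag reads with summits 86 bp apart. NR4A1, an immediate-early nuclear receptor gene that neighbours ATG101 on chromosome 12, had 12 VCP and 17 Flag reads. PIK3R3, a regulatory subunit of PI3-kinase that also lies in the read-through gene P3R3URF-PIK3R3, had 11 and 14 reads at a summit 74 bp upstream of an internal start. ARID3B, a DNA-binding protein gene, had 11 and 14 reads, LOC400499 had 11 and 19, and SOCS2, an inhibitor of cytokine signalling, had 12 and 13. NR4A1 and LOC400499 had no tabulated start within 1 kb of the VCP summit, and RNF135, ARID3B and SOCS2 have no start in the table and could not be assessed. An end of a non-coding gene lay 126 bp from the NR4A1 summit and 24425 bp from that of LOC400499. Starts that the table does not list could not be seen for any host. Reads at these 10 leading shared sites, ATG101, LSM5, PSMF1 and SLC39A1 included, ran from 11 to 19 with VCP and from 11 to 21 with Flag, and the order differed between antibodies, since ATG101 led with VCP and PSMF1 with Flag.

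Most members were weak. Their summits held 7 to 19 reads with a median of 10 (quartiles 9 and 12), over a local background of 1.74 to 5.14 reads with a median of 2.24. The deposited fold enrichment ran from 2.36 to 7.30 with a median of 3.28, and the width from 181 to 634 bp with a median of 206. The threshold of q at most 0.05 was passed by 26 members (5.69%, 3.75 to 8.23), where the share over all 1578 VCP peaks was 6.21%. It was reached by 34 of 774 peaks between genes (4.39%, difference 1.30 points, adjusted p 0.34) and by 38 of 347 at gene ends (11%, difference -5.26 points, adjusted p 0.013, Fisher's exact test over peaks). Of the 26, 10 were in hosts of 500 kb or more, 6 overlapped a Flag peak and 5 were at internal starts.

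The members with the highest -log10 q that were not shared with Flag included that in PAQR5, a membrane progesterone receptor gene, with 13 reads over 1.74 (fold enrichment 5.11, -log10 q 2.38). MALRD1, a regulator of bile acid metabolism, had 15 reads over 2.44 (fold enrichment 4.66), and the transcription factor gene SOX5 had 18 reads over 3.85 (fold enrichment 3.92). CPNE4, a copine gene, had 15 reads over 2.71. The calcium channel subunit genes CACNB2 and CACNA2D2, the small GTPase gene RAB31, SOBP and the clathrin light chain gene CLTB, whose peak also lay in ARL10, each had 12 reads over 1.74 with the same fold enrichment of 4.74. ST6GAL2, a sialyltransferase gene, had 14 reads over 2.44. The intervals of the read counts overlapped throughout, that of ATG101 included, so the order of these peaks was not resolved by their counts.

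**Figure D1:**
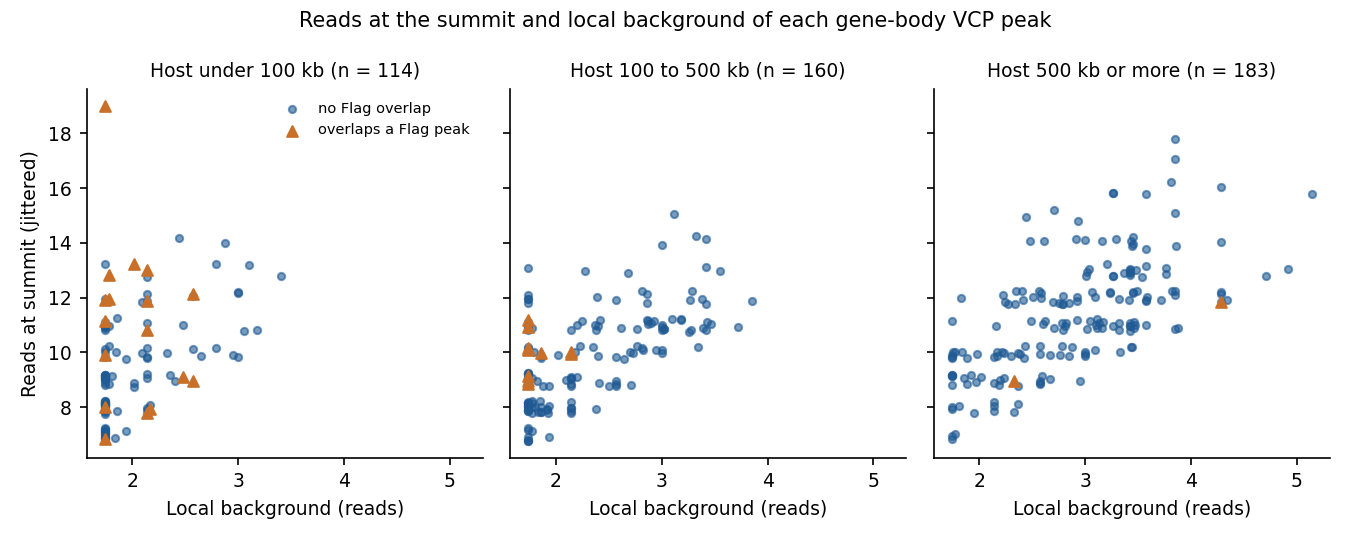
Each point is 1 gene-body VCP peak, placed by its local background in reads (x axis) and the reads at its summit (y axis, jittered), in 3 panels by host gene length; triangles overlap a Flag peak. Background spreads to higher values in longer hosts (median 1.76, 2.14 and 2.92 reads from left to right), and the triangles number 17, 10 and 2.

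The hosts of gene-body VCP peaks were long genes. The median host length over members was 355 kb (quartiles 101 and 836), and 213 kb with each host counted once, against 27.9 kb over the 17361 protein-coding genes that have an eligible body and 147 kb over Flag gene-body peaks. Genes of 100 kb or more held 68.2% of the eligible bases, so an even spread would also place most peaks in long genes. Per eligible Mb there were 0.353 members in hosts under 50 kb, 0.271 at 50 to 100 kb, 0.242 at 100 to 200 kb, 0.341 at 200 to 500 kb, 0.593 at 500 to 1000 kb and 0.992 (exact Poisson interval 0.800 to 1.22) at 1000 kb or more. Flag peaks were densest under 50 kb (1.88 per Mb) and numbered 1.01 to 1.14 per Mb in the longer classes. Hosts of 500 kb or more held 183 members (40%) on 21.4% of the eligible bases, and 18.6% of Flag gene-body peaks. Hosts of 100 kb or more held 75.1% of members (70.8 to 79.0) and 60.7% of Flag gene-body peaks (58.1 to 63.3), on 68.2% of the eligible bases. The difference was 14.3 points (Fisher's exact test over peaks, adjusted p 9.0e-08), with the share of bases between the VCP and Flag shares. Among peaks with q of at most 0.05 it was 6.25 points (adjusted p 1).

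**Figure D2:**
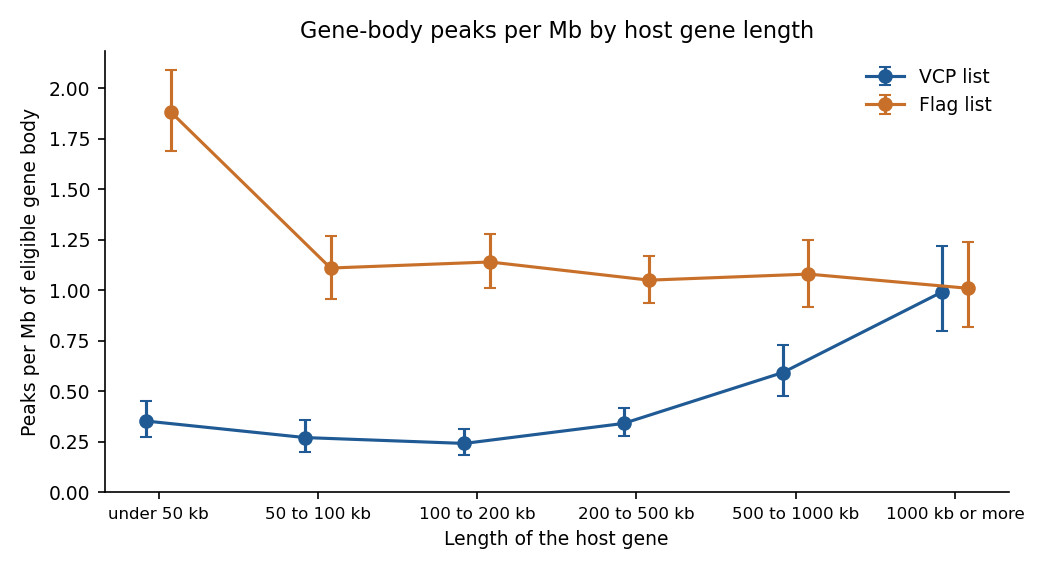
Gene-body peaks per Mb of eligible gene body (y axis) in 6 classes of host gene length (x axis) for the VCP and the Flag list, with exact Poisson 95% intervals. The VCP value is highest, at 0.992 per Mb, in the longest class, and the Flag value is highest, at 1.88, in the shortest.

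Local background was higher in longer hosts in both libraries. In the VCP library its median was 1.76 reads in hosts under 100 kb, 2.14 at 100 to 500 kb and 2.92 at 500 kb or more, and 50%, 31.9% and 7.65% of members lay at the lowest background of 1.74. In the Flag library the median was 1.97 reads under 100 kb and 2.81 at 500 kb or more. The 335 members above the lowest background had densities of 0.156, 0.203 and 0.687 per Mb in the same 3 length groups. The 122 members at the lowest background had 0.156 per Mb under 100 kb (0.118 to 0.202), 0.0948 at 100 to 500 kb and 0.0569 at 500 kb or more (0.0311 to 0.0954). Among peaks at the lowest background of each library, the share in hosts of 100 kb or more was lower with VCP than with Flag (difference -4.63 points, Fisher's exact test over peaks, adjusted p 0.73). With Flag the densities were 0.833, 0.554 and 0.870 above the lowest background and 0.663, 0.535 and 0.183 at it. All of these densities are per Mb of all eligible bases, since the background of bases without a peak was not known, so peaks that move from the lowest to a raised background with length lower the former and raise the latter. The part of background in the length result was not tested.

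At the ends of the length range, the shortest hosts were CITED2 (2.84 kb), a transcriptional co-regulator gene with 11 reads, CGB7, a chorionic gonadotropin gene with 8, ANXA2R with 10, ALDOA, the glycolytic aldolase gene that overlaps LOC112694756, with 9, and the folate receptor gene FOLR1 with 8. CGB7 and ALDOA overlapped a Flag peak. CGB7 belongs to a cluster of near-identical genes, so the placing of its reads is uncertain. The longest hosts were the splicing factor gene RBFOX1 (2474 kb), the neuronal adhesion gene CNTNAP2 (2304 kb), the receptor phosphatase gene PTPRD (2299 kb), the synaptic scaffold gene DLG2 (2173 kb) and CSMD1 (2060 kb). None of the peaks in these 5 longest hosts overlapped a Flag peak.

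Along the gene, members were spread over the whole body. For the 377 members whose host strand was known, the host from 1 kb inside each end was split into 5 quintiles of equal length. From 5′ to 3′ the quintiles held 19.1% (15.3 to 23.4), 19.4%, 22.5%, 16.2% and 22.8% (18.7 to 27.4) of members, each on 19.7% to 20.1% of the eligible bases. Every interval held the share of bases. Flag gene-body peaks leaned to the 5′ side, with 29.1% (26.5 to 31.8) in the most 5′ quintile and 15.7% (13.7 to 17.9) in the most 3′ one. In hosts under 100 kb the most 5′ and the most 3′ quintile each held 23.3% of members, and they held 35.8% and 12.4% of Flag peaks. The first 5 kb of the body held 34 members (9.02%, 6.33 to 12.4) on 6.59% of the bases, and 17.1% of Flag gene-body peaks. Away from internal starts the most 5′ quintile held 15.9% of members (12.1 to 20.2) and the most 3′ one 24.9% (20.3 to 29.8), the latter above its 19.8% of bases. The VCP and Flag shares per quintile were not tested against each other.

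**Figure D3:**
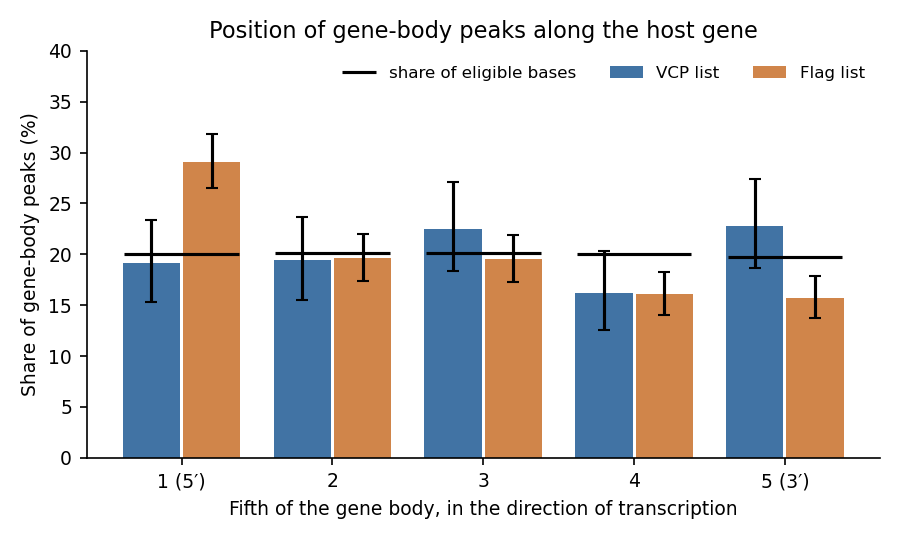
Share of gene-body peaks (y axis, percent) in each of 5 equal parts of the gene body from 5′ to 3′ (x axis), for the VCP and Flag lists, with exact binomial 95% intervals; black lines are the share of eligible bases. VCP bars sit near the lines in all parts, and the Flag bar is highest, at 29.1%, in the most 5′ part.

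In all, 361 genes hosted a gene-body VCP peak, 2.08% of the 17361 genes with an eligible body, and 59 of them (0.340%) hosted several. Among the 297 genes of 500 kb or more, 34.7% hosted at least 1 peak and 15.5% at least 2, and these very long genes were 46 of the 59. By number, 302 hosts had 1 peak, 39 had 2, 10 had 3, 6 had 4, 3 had 5 and 1 had 8. With only members of q at most 0.05 kept, 0 genes held several. Neighbouring summits in a gene lay within 5 kb of each other in 6 of 96 pairs, so counting such pairs once left 57 hosts with several peaks. Of the 155 peaks in these 59 hosts, those in GSE1 and LOC124905135 that overlapped a Flag peak were the only ones to do so, 1 in each. A Flag gene-body peak elsewhere in the same gene or under the VCP peak was present in 35 of the 59 hosts (59.3%, 45.7 to 71.9) and in 134 of all 361 hosts (37.1%). Over all genes with an eligible body 6.31% held a Flag gene-body peak, and of the 297 genes of 500 kb or more 140 did. Whether the VCP hosts differ from genes of like length was not tested.

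AGBL4, which encodes an enzyme that trims glutamate chains from tubulin, held the most, with 8 peaks over 957 kb of its 1501 kb. That is 5.52 per eligible Mb (exact Poisson interval 2.39 to 10.9) against 0.398 over all eligible bases, at which density its length would hold 0.576. Hosts of 1000 kb or more held 0.992 per Mb. AGBL4 was picked for its number of peaks, and the interval does not allow for that choice. Its peaks had 9 to 13 reads over 2.14 to 3.76. The highest -log10 q among them was 0.434, so none passed q of at most 0.05. None overlapped a Flag peak, none lay within 1 kb of a tabulated start, and the Flag list had 2 peaks elsewhere in the gene. CSMD1, a membrane protein gene with complement-control domains, GPC5, a heparan sulfate proteoglycan gene, and OPCML, a cell adhesion gene, held 5 each. Their reads were 10 to 16, 9 to 13 and 10 to 14, and the Flag list had 7, 1 and 0 peaks in the same genes. With 4 each came CNTNAP2, MACROD2, RBFOX1, the sarcoglycan gene SGCD, the transcription factor gene NPAS3 and TMEM132C. TMEM132C had the tightest group of the 20 hosts with 3 or more, 4 summits within 54.2 kb (9.12 per Mb, 2.48 to 23.3), with 11, 12, 12 and 15 reads over backgrounds of 3.0 to 3.42. It too was picked by its values, and its interval does not allow for that. In RBFOX1 a pair of summits lay 1.85 kb apart (13 and 12 reads) and the others over 1 Mb away.

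The 10 hosts with 3 peaks included the netrin receptor gene DCC, the calsyntenin gene CLSTN2, the potassium channel auxiliary subunit gene DPP6, the growth factor gene NRG3, the ion channel gene TRPM3, the synaptic vesicle gene SYNPR, the phosphodiesterase gene PDE4D, KIAA1217 and GSE1. Background at the 20 hosts with 3 or more peaks ran from 1.74 in DPP6 and TRPM3 to 4.71 in OPCML. Of hosts with 2 peaks, the densest were LOC124905135 (29.7 per Mb), the ubiquitin ligase gene MARCHF11 (18.1), the actin-binding gene CORO2B (9.64), the splicing regulator gene MBNL1 (9.08), EYA4, CNTN6, EBF1, FBXL7, KCNN2 and FER (4.47). The CORO2B summits were 195 bp apart, 267 and 462 bp downstream of the same internal start, with 8 reads each. Among 2-peak hosts the longest were PTPRD, EYS, NRXN3, DAB1 and TENM3, at 0.871 to 1.48 per Mb. With 2 peaks in a gene the interval is wide, 0.242 to 7.21 per Mb for the 1004 kb of ADAMTSL1, an example chosen after its values were seen.

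**Figure D4:**
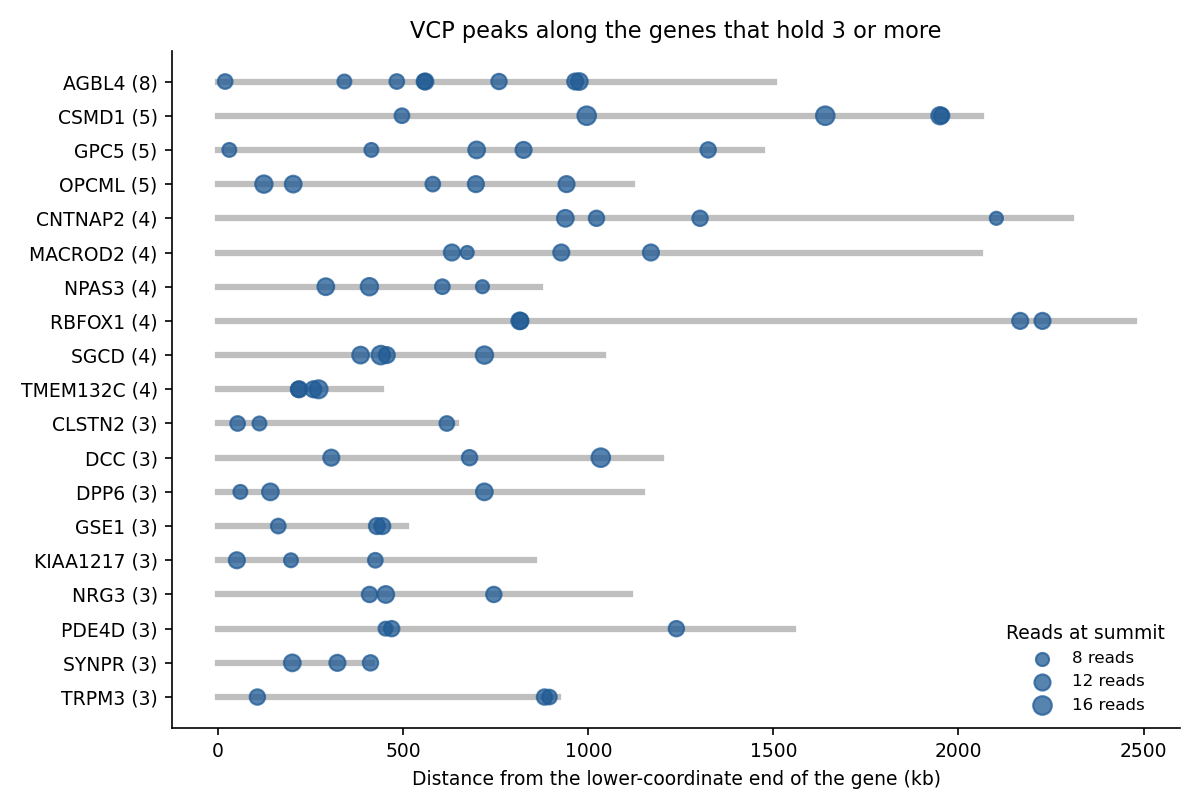
Genes with 3 or more gene-body VCP peaks (number in brackets), all but 1 of the 20, drawn to scale as grey bars from the end with the lower coordinate (x axis, kb); each point is a summit, sized by its reads. Peaks are spread along most genes, as in AGBL4, and close together in TMEM132C, where 4 summits lie within 54.2 kb.

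Common fragile site genes were the list with the largest share of hosts. Of its 28 members 13 hosted a gene-body VCP peak (46.4%, 27.5 to 66.1), where 2.08% of all genes and 34.7% of genes of 500 kb or more did, the latter within the interval. They held 29 peaks, against 14.7 if peaks fell evenly over eligible bases, and the Flag list held 30 in them, against 44.7. Hosts of 500 kb or more as a class held 1.87 times their share of eligible bases in VCP peaks, and those of 1000 kb or more 2.49 times. An excess over an even spread was thus not particular to this list. CSMD1 had the highest -log10 q of the list (1.62, 16 reads over 3.26), followed by the oxidoreductase gene WWOX (1.58, 12 reads over 1.83), and MACROD2 was also among the highest (1.03, 12 over 2.24). FHIT, at a well-studied fragile site, had 1 peak of 7 reads over 1.77. DLG2, NAALADL2, CNTNAP2, PDE4D, AUTS2, PARD3B, DAB1 and ESRRG were also hosts, and none of the 29 peaks overlapped a Flag peak. The median length in the list was 1370 kb, and length and background move with it as they do in long genes at large.

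The lists written for VCP's own pathway and for processes it serves hosted 4 peaks in all. They do not hold every such gene, and the ubiquitin ligase hosts RNF135 and MARCHF11 named above are outside them. None of 28 genes for VCP and its cofactors did (0%, upper bound 12.3%), where an even spread by length would give 0.564 peaks. The Flag list had 4 peaks in 3 of them, against 1.72 by length, where 6.31% of all genes held a Flag gene-body peak. Of 56 ubiquitin ligases and deubiquitinases 2 did (3.57%), the deubiquitinase genes USP34 (11 reads over 1.74) and OTUD7A (8 over 1.86), against 2.99 peaks by length. Of 32 autophagy genes 2 did (6.25%), ATG101 and SQSTM1, a cargo receptor gene, with 10 reads over 2.79 at 948 bp from an internal start, against 0.954 peaks by length. Of 63 genes for DNA repair and replication 0 did (upper bound 5.69%), where an even spread would give 2.25 peaks, and 2 had a Flag peak. These counts are small, and the intervals of all 4 lists held the 2.08% of all genes.

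In the lists for chromatin, signalling and epithelium the counts were also small. These lists are partial too, and adhesion gene hosts named above, such as OPCML and CNTNAP2, are not in the adhesion list. Of 71 chromatin genes 2 hosted a peak (2.82%), the remodeler ATPase SMARCA2 (8 reads over 1.93) and the acetyl-lysine reader BRD2 (9 over 2.40). Of 42 genes of the WNT and TGF-beta pathways 1 did, the co-receptor TGFBR3 (2.38%, 7 over 1.74). Of 48 genes of RAS, MAPK and PI3-kinase signalling 2 did (4.17%), the insulin receptor INSR (9 over 1.94) and PIK3R3. Among 50 genes of cell adhesion and actin 3 did (6.0%), the catenin CTNND1, the cadherin CDH13 with 2 peaks and the integrin ITGB5 with 11 reads over 2.14, 821 bp from an internal start. Of 18 intestinal epithelium genes 1 did (5.56%), the transcription factor HNF4A (9 over 1.74), and of 16 markers of other cell types 0 did (upper bound 20.6%). Each of these 6 intervals held 2.08%. By length, an even spread would give 3.87 VCP peaks in the chromatin list and 1.62 in that of WNT and TGF-beta. It would give 2.58 in RAS, MAPK and PI3-kinase, 5.12 in adhesion, 0.238 in the intestinal list and 0.269 in the markers. Flag gene-body peaks were in 14 of the 50 adhesion genes and 9 of the 42 WNT and TGF-beta genes. They were also in 10 of the 71 chromatin genes and 3 of the 48 RAS, MAPK and PI3-kinase genes. The intestinal list had them in 2 of 18 genes and the markers in 1 of 16, where the share over all genes was 6.31%. In this order the lists held 23, 14, 12, 5, 3 and 1 Flag peaks. An even spread by length would give 15.6, 4.94, 11.8, 7.84, 0.725 and 0.820.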

How the data were processed

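Peak lists of the VCP and Flag antibodies were used, with 1 library each and no replicates. The submitters' processing notes name MACS2 2.1.0, Bowtie 1.1.2, Trimmomatic 0.33 and bcl2fastq 2.17, with build hg38. Settings, and the control used for peak calling, were not given in the sources used here. Each list deposited by the authors gives a score (not used), a fold enrichment, which is a ratio of summit reads to local background, and -log10 p and -log10 q values. Peaks appear to have been selected on p, since the lowest deposited -log10 p was 3.0. Summit reads and background were derived from the fold enrichment, with a pseudocount of 1 read, and the Poisson p. The background may come from input or from the precipitated library itself, which the sources used here do not settle. Reads came out whole within 0.001 on the -log10 p scale for all 1816 VCP and 5719 Flag peaks. The median depth at a summit was 10 and 11 reads, which sets the width of each interval.

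Genes were 19866 protein-coding rows of the RefSeq table (GRCh38.p14), after rows placed on other scaffolds were dropped (58961 of 59792 kept). Starts and strand came from the RefSeq promoter table, which matched 292 of 361 hosts. A peak in overlapping genes counted for the shortest (448 members had 1 host). Density is peaks per Mb of bases where a member summit could lie. Intervals are exact at 95% (Clopper-Pearson or Poisson). Fisher's exact tests (Benjamini-Hochberg over 8) compare peaks, with a threshold of 0.05. Code ran in Python 3.11.15 with scipy 1.17.1, numpy 2.4.6 and pandas 2.3.3, and was tested on simulated data.

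Members, the 11 gene lists, motifs and tests were chosen with earlier results of these data known, and the comparisons at internal starts and by lowest background were added after the files were seen. Named genes were the 15 members with the highest -log10 q, the 10 highest shared with Flag, every host with 3 or more peaks, the 10 densest and 5 longest of those with 2, the 5 shortest and 5 longest hosts, and up to 4 members per gene list. Alternatives changed the q limit, distance to ends, gene set, segments, overlap rule and host choice. Peaks on contigs outside the chromosomes were left out. Some genes that the rule picks are not reported here.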

Additional observations from a re-analysis of the deposited data

Results flagged for a closer look

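The VCP list also held 13 peaks on contigs outside the chromosomes. They were not placed in genes and enter no comparison, and whether they lie in gene bodies was not assessed.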

How the results depend on the processing

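No paired analysis was possible because each antibody has 1 library and the labels carry no replicate numbers. Of 71 values under alternatives, 48 kept their direction and side of the threshold or stayed within their error. For the rest the cause was not tested, apart from fewer peaks where peaks were left out.

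Keeping only peaks with q of at most 0.05 left 26 members in 26 hosts, 0 of them with several peaks, and 25% in the most 5′ quintile. It also gave no test of the share with q of at most 0.05. The remaining differences kept their direction without passing the test: Flag overlap against sequence between genes 7.47 points and against gene ends -17.6, hosts of 100 kb or more 6.25, internal starts -1.35, and Flag overlap at starts 50.

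The lead in Flag overlap over sequence between genes lost its call under 8 more alternatives: 2.31 points over 5 kb from gene ends, 2.39 without LOC and read-through genes, 1.61 without peaks near non-coding gene ends, 1.96 with summits within 100 bp, 1.69 against Flag peaks with q of at most 0.05, 0.644 without internal starts in the bodies, which removes peaks from that side alone, 0.576 without starts on either side and 5.23 at the lowest background. The last 3, and that of hosts with a start in the table, were added after the data were seen. Over 5 kb from ends the difference at internal starts was -3.86 points, past no threshold. With the left-out segments kept in, the difference at non-coding gene ends (-2.75 points) passed it.

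At the lowest background there were 122 members and 3 genes with several peaks, and the difference in hosts of 100 kb or more reversed to -4.63 points. The first 5 kb in place of the most 5′ quintile held 9.02%. Depth limits single peaks, most of which rest on about 10 reads, and 1 library per antibody gives no spread between cultures.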

Other observations

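Gene-body VCP peaks were not even over the chromosomes. Against 0.398 per eligible Mb over all (exact Poisson interval 0.362 to 0.436), chromosome X had 4 peaks (0.0814, 0.0222 to 0.209), one of them in DHRSX, shared with Flag. Chromosome 2 had 27 (0.267, 0.176 to 0.389), chromosome 10 up to 95 Mb also had 27 (0.614, 0.405 to 0.894) and chromosome 19 had 20 (0.701, 0.428 to 1.08), and the interval of each of these 4 left out 0.398. Flag gene-body peaks were sparse on chromosome X too (0.387 per Mb, all chromosomes 1.21) and densest on chromosome 19 (3.22, 2.60 to 3.95). Copy number was not measured.

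Of the members, 7 lay in a pair of overlapping genes and 2 in nested clusters. Both clusters were protocadherins, cell adhesion genes whose variable exons lie side by side, so 1 peak falls within many annotated genes. The peak in the gamma cluster, counted for PCDHGB6, had 9 reads, and that in the alpha cluster, counted for PCDHA10, had 10 reads. These genes were chosen after their values were seen.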
